A study of Mus musculus with 8 samples.

Results

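The ephrins and the Eph receptors were followed as a family in ventricles of mouse embryos at embryonic day 15.5. The genes described are the ephrins Efna1, Efna5, Efnb1 and Efnb2 and the receptors Epha2, Epha4, Epha7, Ephb2, Ephb3 and Ephb4. They were picked by symbol, with earlier results of these data known, and make up 10 of the 53465 genes in the deposited table. The 12 other ephrin and Eph genes were examined beside them. The series compared 4 wild-type (WT) libraries with 4 libraries whose genotype is given as Nrg1flox;Cdh5-CreERT2 (labelled-mutant below), and its design text gives 1 ventricle for each library. In that line Cre recombinase is fused to a hormone-binding domain that tamoxifen activates, and it is transcribed from the promoter of Cdh5 (VE-cadherin), which is active in endothelial cells. It is meant to delete floxed Nrg1 (neuregulin-1, a secreted growth factor of the endocardium) in those cells only. The labels give neither the tamoxifen schedule, nor the strain, nor whether the WT embryos carried the floxed allele, the Cre or received tamoxifen.

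Ephrins are ligands that stay on the cell surface, so that they signal only between cells that touch. Ephrin-A proteins are held by a lipid anchor and bind mainly EphA receptors, while ephrin-B proteins cross the membrane and bind mainly EphB receptors. The Eph receptors are the most numerous family of receptor tyrosine kinases, and contact can signal forward into the receptor's cell and in reverse into the ligand's cell, usually to repel or to sort cells. In blood vessels, ephrin-B2 marks arterial and EphB4 venous endothelium, and both are needed for the embryo's vessels and for the trabeculae of the heart.

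Library totals lay between 16761763 and 24144272 expected counts, and the 10 genes had between 148 and 3456 expected counts in every library. Values below are CPM, a gene's count relative to its library's total after scaling with TMM factors of 0.988 to 1.01, given as mean ± SD with n = 4 in each group. Fold changes are log2 values of labelled-mutant over WT with a standard error (SE), and the false discovery rate (FDR) is the edgeR quasi-likelihood p (two-sided) with Benjamini-Hochberg adjustment over the 15388 genes tested. Nrg1, the targeted gene, was not lower in the labelled-mutant libraries, at 4.87 ± 0.636 CPM in WT against 6.17 ± 0.611 CPM in labelled-mutant libraries (log2 fold change 0.34, SE 0.12, FDR 0.311), and counts over the whole gene do not show whether the floxed part was deleted. Xist, transcribed from the inactive X chromosome, ranged from 0.176 to 206 CPM in WT and from 103 to 327 CPM in labelled-mutant libraries. The low value was that of WT 4. The summed Y-linked genes were at 69.3 to 171 CPM in WT against 42.9 to 120 CPM in labelled-mutant libraries, so that all libraries but WT 4 held both kinds of transcript. A ventricle of 1 male or 1 female embryo would not be expected to give both, which conflicts with the design text, so whether a library stands for 1 embryo, and with it what n = 4 counts, is not known. The part of the sex-linked difference in the results below was not tested beyond a fit that added the Y-linked level as a term. Nothing in the labels says which libraries came from separate litters, so the p-values measure the spread between these libraries.

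All 10 genes passed the filter on low counts. Efna1 was the only 1 of the 10 that passed the main test, lower in the labelled-mutant libraries at an FDR below 0.05. Of all tested genes, 0.526% passed in either direction and 0.214% in the lower direction. Ephb3 came next (FDR 0.0933), and not passing does not show that a level was unchanged. At an unadjusted p below 0.05 there were 4 of the 10 genes (Efna1, Ephb3, Ephb4 and Epha2), against 10.5% of all tested genes. Of these, 3 had the lower mean in the labelled-mutant libraries, against 5.41%. The groups did not overlap for 1 of the 10 genes, Efna1, where 6.05% of all tested genes did not overlap and 2.98% did so with the labelled-mutant libraries lower. The log2 fold change was below 0 for 6 of the 10 genes, against 50.6% of all tested genes, and the median over the 10 was -0.07, against -0.0012 over all tested genes. Since the 10 genes were chosen with earlier results of these data known, these counts and shares are descriptions, and the genes were not tested as a set.

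**Figure D1:**
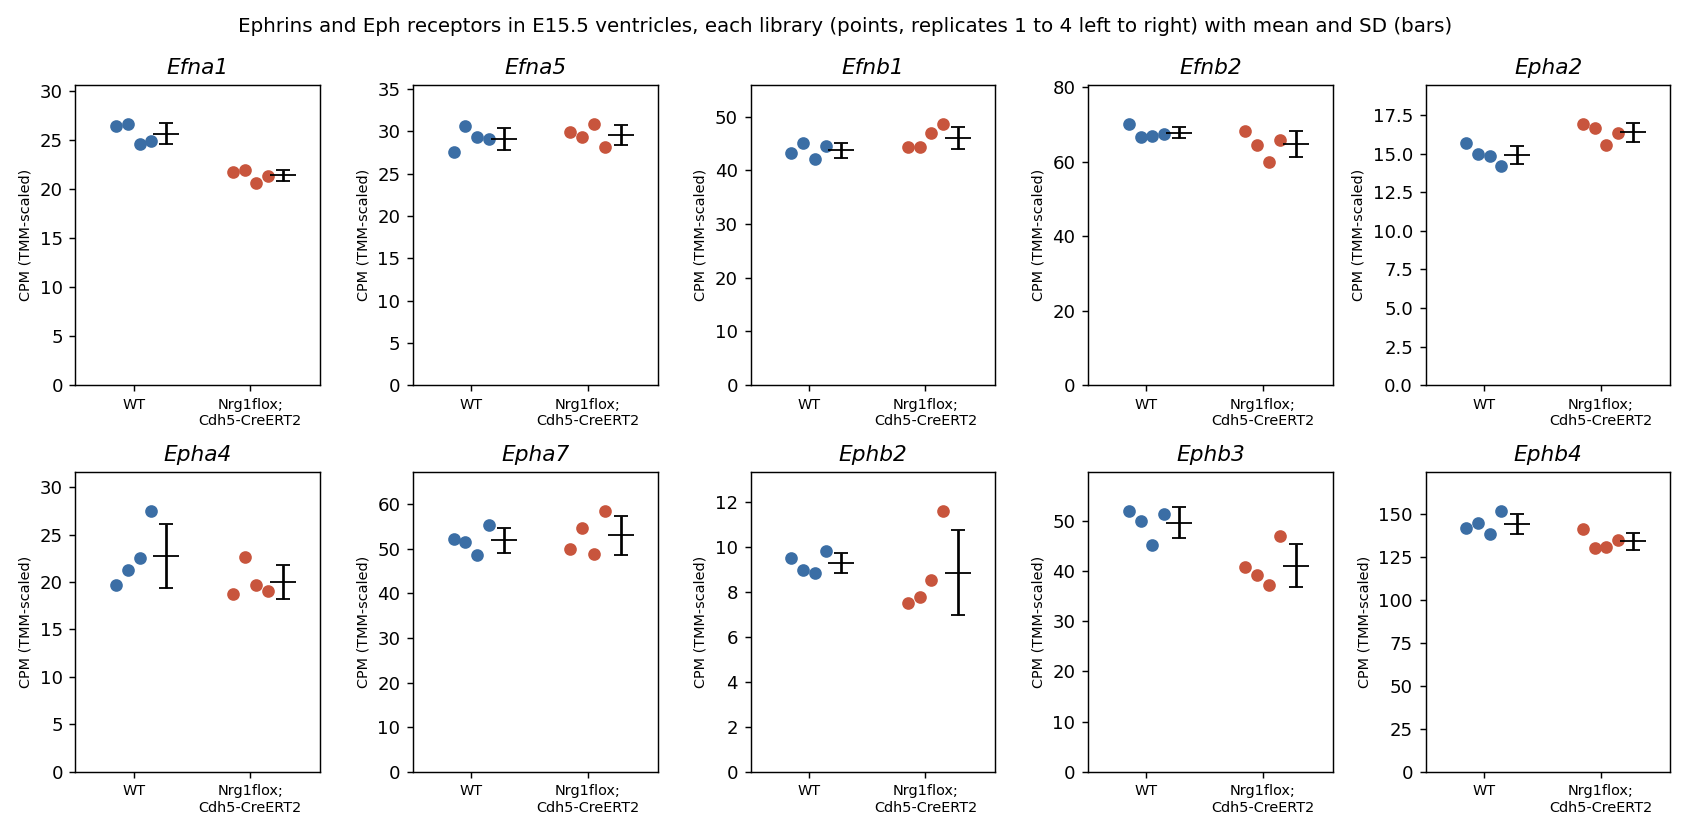
Level of each of the 10 genes in CPM (vertical axes, each starting at 0) in the WT (blue) and labelled-mutant libraries (red), with a point per library, replicates 1 to 4 from left to right, and the mean and SD as bars. The groups stood apart for Efna1, at 24.6 to 26.6 CPM against 20.7 to 21.9 CPM, and overlapped for the other genes.

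Among the ephrin-A ligands, Efna1, a ligand of EphA receptors that is abundant in endothelium, was at 26.5, 26.6, 24.6 and 24.9 CPM in WT 1 to 4 and at 21.7, 21.9, 20.7 and 21.3 CPM in labelled-mutant 1 to 4. Every labelled-mutant library was thus below every WT library. The mean fell from 25.6 ± 1.05 to 21.4 ± 0.543 CPM (n = 4 each), a log2 fold change of -0.26 with an SE of 0.0481 and a 95% confidence interval from -0.36 to -0.16 (FDR 0.0414). It stood at rank 47 by p among all tested genes. The call rested on having all libraries: the FDR was 0.107 without WT 1, 0.101 without WT 2, 0.0757 without WT 3 and 0.0841 without WT 4. It was 0.0945 without labelled-mutant 1, 0.0769 without labelled-mutant 2 and 0.152 without labelled-mutant 3, and it passed at 0.049 without labelled-mutant 4. In those fits the log2 fold change stayed between -0.28 and -0.24, and it was -0.30 once the Y-linked level entered the fit (FDR 0.117).

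Efna1 lies on the minus strand of chromosome 3, from 89271733 to 89281142 (GRCm38, GENCODE M21), next to the genes of ephrin-A3 and ephrin-A4. Efna4, from 89333390 to 89338028, was at 6.56 ± 1.14 CPM in WT against 6.09 ± 0.570 CPM in labelled-mutant libraries (log2 fold change -0.11, SE 0.128, FDR 0.843), and the groups overlapped. Efna3, between the other two, was at 0.0883 to 0.607 CPM and did not pass the filter. Efna1 was the only gene of this cluster that passed the test, and whether its change differed from that of Efna4 was not tested.

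Efna5, a ligand best known for guiding axons, was at 27.5, 30.6, 29.3 and 29.1 CPM in WT 1 to 4 and at 30.0, 29.3, 30.9 and 28.1 CPM in labelled-mutant 1 to 4. Both groups covered the same range. The means were 29.1 ± 1.26 and 29.6 ± 1.154 CPM, with a log2 fold change of 0.02 (SE 0.0469, 95% confidence interval -0.08 to 0.13, FDR 0.922). Efna2 was at 10.2 ± 0.916 CPM in WT against 9.52 ± 1.33 CPM in labelled-mutant libraries, with overlapping groups (log2 fold change -0.11, FDR 0.779).

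The promoter sequence of Efna1 is shown because it was the gene that passed the test, and that of Ephb3 because it had the next smallest p. Both are from RefSeq (GRCm38.p6), read 5′ to 3′ on the gene's strand, and each holds the bases before an annotated start site. For Efna1 these are chr3:89279646-89279895 on the minus strand, 1 of the gene's start sites, with 250 bases that lie inside the gene, upstream of its later start site and outside annotated exons. For Ephb3 they are chr16:21204545-21204754 on the plus strand, with 210 bases that end before the first annotated exon. Capitals mark GGGCGG, the core of the GC box bound by SP-family factors.
Efna1: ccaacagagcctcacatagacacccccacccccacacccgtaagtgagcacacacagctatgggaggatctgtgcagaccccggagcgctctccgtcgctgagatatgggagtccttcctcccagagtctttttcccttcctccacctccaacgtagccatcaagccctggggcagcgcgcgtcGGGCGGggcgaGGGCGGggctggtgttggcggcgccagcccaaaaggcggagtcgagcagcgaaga
Ephb3: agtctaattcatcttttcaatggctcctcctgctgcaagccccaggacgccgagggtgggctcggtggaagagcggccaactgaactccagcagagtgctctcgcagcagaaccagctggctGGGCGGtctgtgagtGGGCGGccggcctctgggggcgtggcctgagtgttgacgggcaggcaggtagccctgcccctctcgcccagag
GC content was 64.4% in the Efna1 stretch and 65.2% in that of Ephb3, and each held GGGCGG 2 times on the printed strand. Among the 250 bases before the start sites of all genes, 32.7% of 32851 windows held GGGCGG on either strand, and 8 of the 10 genes did in at least 1 of their 12 windows. CCGGAA, an ETS core, was found for 1 of the 10 genes (Ephb2) and in 12% of all windows. TGGGAA, an RBPJ core, was found for 3 (Epha4, Epha7 and Efnb1) and in 21.6% of all windows. CACGTG, the E-box of HEY and MYC factors, was found for 0 of the 10 genes and in 6.02% of all windows, and TATAAA for 1 (Efnb2) and in 12.4%. All motifs were searched on both strands, and none contains another. A gene with several start sites has several windows, so the shares for genes and for windows differ in what they count.

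Among the ephrin-B ligands, Efnb2, the arterial ephrin that binds EphB4, was at 70.1, 66.7, 67.0 and 67.5 CPM in WT 1 to 4 and at 68.3, 64.4, 60.0 and 65.9 CPM in labelled-mutant 1 to 4. Labelled-mutant 1 was above 3 of the WT libraries. The means were 67.8 ± 1.55 and 64.7 ± 3.49 CPM, with a log2 fold change of -0.07 (SE 0.0395, 95% confidence interval -0.16 to 0.02, FDR 0.582). The lower bound of the interval was above the log2 fold change of Efna1 (-0.26), whose own interval ran from -0.36 to -0.16. Whether the changes of Efnb2 and Efna1 differed was not tested. Efnb2 lies on chromosome 8, from 8617434 to 8661242, the chromosome that also holds Nrg1 (31814551 to 32884029).

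Efnb1, the X-linked ephrin-B1 of mesenchyme and heart muscle, was at 43.2, 45.2, 42.0 and 44.5 CPM in WT 1 to 4 and at 44.3, 44.4, 46.9 and 48.6 CPM in labelled-mutant 1 to 4. Labelled-mutant 3 and 4 were above all WT libraries and the other two were among them. The means were 43.7 ± 1.41 and 46.1 ± 2.09 CPM, with a log2 fold change of 0.07 (SE 0.0410, 95% confidence interval -0.02 to 0.16, FDR 0.58). Efnb3, the third ephrin-B, was at 120 ± 7.44 CPM in WT against 125 ± 5.999 CPM in labelled-mutant libraries (log2 fold change 0.06, SE 0.0469, FDR 0.706).

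Among the EphA receptors, Epha2, a receptor of ephrin-A1 in endothelium and epithelium, was at 15.7, 15.0, 14.9 and 14.2 CPM in WT 1 to 4 and at 16.9, 16.7, 15.6 and 16.4 CPM in labelled-mutant 1 to 4. Labelled-mutant 3 was below WT 1 and the other labelled-mutant libraries were above all WT libraries. The means were 14.9 ± 0.610 and 16.4 ± 0.592 CPM, with a log2 fold change of 0.14 (SE 0.0596, 95% confidence interval 0.01 to 0.26, FDR 0.445). The receptor's mean was thus higher where its ligand Efna1 was lower, and only the ligand passed the test. Expected counts of Epha2 were not whole numbers in 50% of the libraries, which means that reads were shared out with other genes.

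Epha4, a receptor that binds ephrins of both classes, was at 19.7, 21.3, 22.6 and 27.5 CPM in WT 1 to 4 and at 18.8, 22.7, 19.6 and 19.0 CPM in labelled-mutant 1 to 4. WT 4 was the highest library, and the groups overlapped. The means were 22.8 ± 3.37 and 20.01 ± 1.80 CPM, with a log2 fold change of -0.18 (SE 0.0957, 95% confidence interval -0.39 to 0.03, FDR 0.55).

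Epha7, a receptor known from the developing brain, was at 52.1, 51.4, 48.7 and 55.4 CPM in WT 1 to 4 and at 49.9, 54.6, 48.9 and 58.5 CPM in labelled-mutant 1 to 4. The groups covered nearly the same range. The means were 51.9 ± 2.78 and 53.0 ± 4.42 CPM, with a log2 fold change of 0.03 (SE 0.0564, 95% confidence interval -0.09 to 0.15, FDR 0.923).

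Among the EphB receptors, Ephb3, a receptor of ephrin-B ligands found in endothelium and epithelium, was at 51.9, 49.9, 45.1 and 51.3 CPM in WT 1 to 4 and at 40.7, 39.2, 37.1 and 47.0 CPM in labelled-mutant 1 to 4. Labelled-mutant 4 was above WT 3, and the other labelled-mutant libraries were below all WT libraries. The means were 49.6 ± 3.12 and 41.0 ± 4.27 CPM, with a log2 fold change of -0.28 (SE 0.0659, 95% confidence interval -0.42 to -0.14, FDR 0.0933). It had the lowest log2 fold change of the 10 genes but a wider spread than Efna1, and it did not pass. It passed without labelled-mutant 4 (log2 fold change -0.35, FDR 0.0148), with the likelihood ratio test (FDR 0.0107), with DESeq2 (0.0169), with no filter on low counts (0.000552) and with the replicate number as a block (0.0313). A term for the Y-linked level took it to -0.19 (FDR 0.422). Expected counts of Ephb3 were not whole in 75% of the libraries.

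Ephb4, the venous receptor of ephrin-B2, was at 142, 145, 138 and 152 CPM in WT 1 to 4 and at 141, 130, 131 and 135 CPM in labelled-mutant 1 to 4. Labelled-mutant 1 was above WT 3, and the other labelled-mutant libraries were below all WT libraries. The means were 144 ± 5.83 and 134 ± 4.95 CPM, with a log2 fold change of -0.10 (SE 0.0382, 95% confidence interval -0.19 to -0.02, FDR 0.344). Ephb4 shares 33 exonic bases, 0.711% of its exons, with Zan on the opposite strand, and none of the other 9 genes shared exonic bases with another gene.

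Ephb2, another receptor of the ephrin-B ligands, was at 9.48, 8.96, 8.82 and 9.80 CPM in WT 1 to 4 and at 7.48, 7.76, 8.53 and 11.6 CPM in labelled-mutant 1 to 4. Labelled-mutant 4 was the highest of all libraries and the other labelled-mutant libraries were the lowest. The means were 9.27 ± 0.453 and 8.84 ± 1.89 CPM, with a log2 fold change of -0.08 (SE 0.123, 95% confidence interval -0.34 to 0.19, FDR 0.892). Expected counts of Ephb2 were not whole in 100% of the libraries. The same library, labelled-mutant 4, was also the highest of its group for Ephb3, Epha7 and Efnb1.

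**Figure D2:**
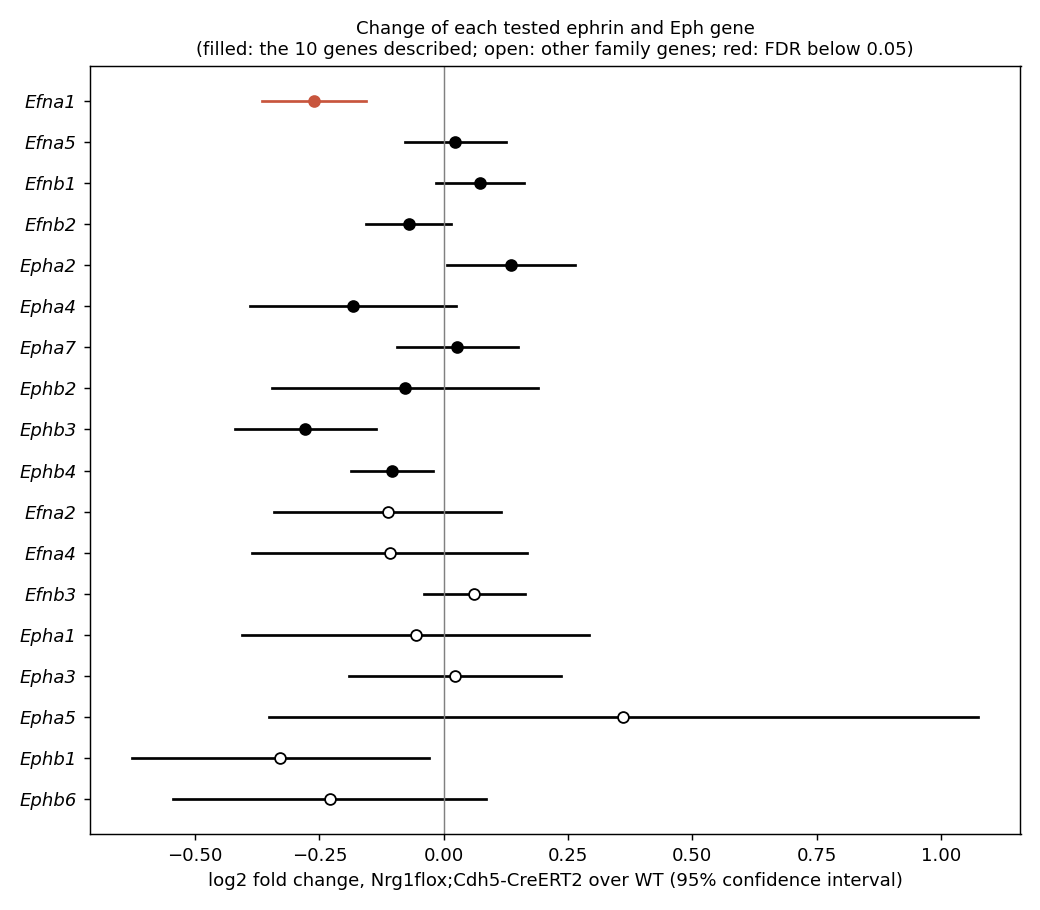
Log2 fold change of labelled-mutant over WT (horizontal axis) with its 95% confidence interval for the 10 genes (filled) and the 8 other family genes that passed the filter (open), with Efna1, the gene at an FDR below 0.05, in red. The intervals of Efna1, Ephb3, Ephb4 and Ephb1 lie below 0, that of Epha2 lies above 0, and the others include 0.

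Of the 12 other ephrin and Eph genes, 8 passed the filter and 0 passed the edgeR test at an FDR of 0.05. At an unadjusted p below 0.05 there was 1 of the 8, against 10.5% of all tested genes. That gene was Ephb1, a further ephrin-B receptor, at 4.81, 5.08, 5.13 and 5.10 CPM in WT 1 to 4 and at 4.25, 4.49, 2.89 and 4.41 CPM in labelled-mutant 1 to 4. The groups did not overlap, as for 6.05% of all tested genes, and labelled-mutant 3 was the lowest. Its log2 fold change was -0.33 (SE 0.138, FDR 0.421), and -0.20 without labelled-mutant 3 (FDR 0.69). Ephb6, a receptor without kinase activity, was at 4.73 ± 0.398 and 4.05 ± 0.802 CPM (log2 fold change -0.23, FDR 0.632). Epha1, Epha3 and Epha5 had log2 fold changes of -0.06, 0.02 and 0.36, with FDR values of 0.948, 0.968 and 0.774. Epha5 had at most 20.9 expected counts in a library, and Epha6, Epha8 and Epha10 had at most 2. With the likelihood ratio test, DESeq2 and limma voom, 0 of these genes passed either.

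The order of the levels was compared per kilobase of exonic length, since a longer transcript gives more reads. Over all 8 libraries, Ephb4 had the highest level of the 10 genes at 30.0 ± 1.57 CPM per kb (SD, n = 8). Efnb1 (13.004 ± 0.600) and Efna1 (12.8 ± 1.31) came next, and their order differed between the groups. Efna1 was above Efnb1 in WT (13.4 to 14.5 against 12.2 to 13.1 CPM per kb) and below it in labelled-mutant libraries (11.3 to 11.97 against 12.8 to 14.1), with no overlap in either group. Efnb2 followed at 9.66 ± 0.442 CPM per kb, below the range of both. Efna5, Ephb3 and Epha7 were at 7.28, 6.82 and 5.31 CPM per kb, each overlapping its neighbour over the 8 libraries, although Ephb3 and Epha7 did not overlap within WT. Epha2 and Epha4 were at 3.35 and 2.66 CPM per kb, overlapping each other over the 8 libraries but not within the labelled-mutant group, and Ephb2 was the lowest at 0.718 ± 0.102 CPM per kb. Ephb4 was thus 41.8-fold above Ephb2 on this scale.

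The order depended on the length used. With the length of the longest transcript, Efna1 (14.4 CPM per kb), Efnb2 (13.8) and Efnb1 (13.8) lay next to each other, and Ephb3 (9.54) and Epha7 (7.77) stood above Efna5 (7.28). Ephb4 stayed the highest at 32.1 and Ephb2 the lowest at 0.831 CPM per kb. Efnb3, outside the 10 genes, had the highest level of the family at 38.6 CPM per kb, 2.97-fold that of Efnb1.

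**Figure D3:**
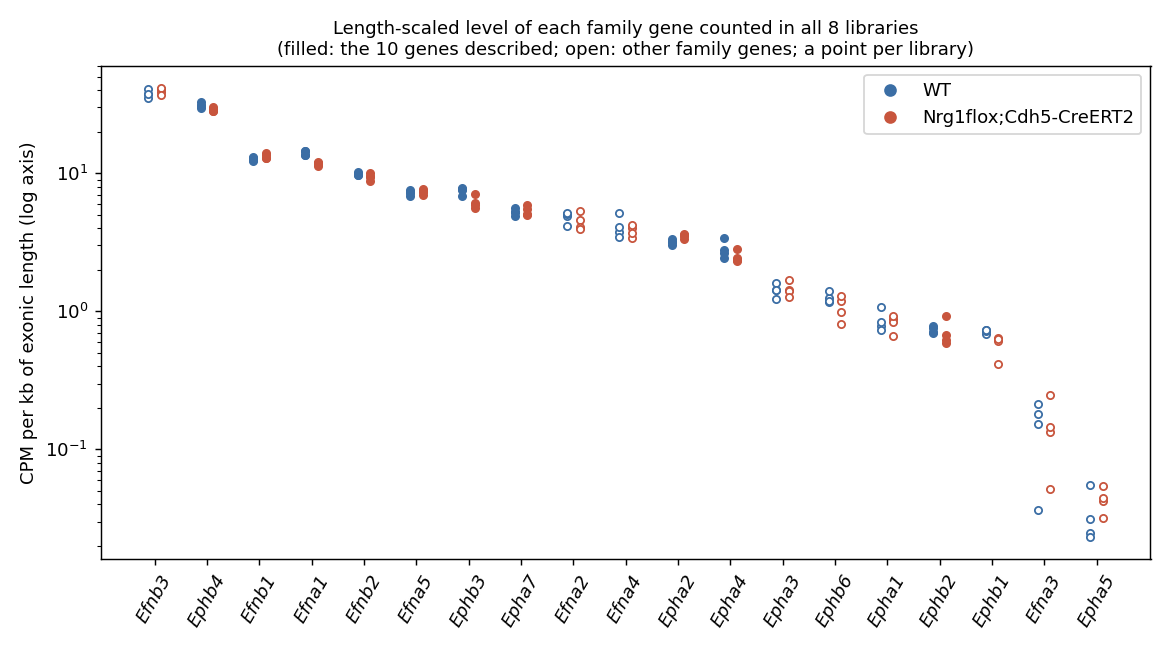
Level of the family's genes in CPM per kb of exonic length (vertical log axis) in each WT (blue) and labelled-mutant library (red), with the 10 genes filled and other family genes open, ordered by their mean. Ephb4 is the highest of the 10 genes at 28.0 to 32.7 CPM per kb and Ephb2 the lowest at 0.593 to 0.920 CPM per kb.

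Summed by class on the same CPM per kb scale, the Efna1 and Efna5 ligands were at 21.2 ± 0.657 in WT and 19.0 ± 0.307 in labelled-mutant libraries (n = 4 each). The Efnb1 and Efnb2 ligands were at 22.6 ± 0.409 and 22.8 ± 0.655. The EphA receptors were at 11.3 ± 0.531 and 11.4 ± 0.580, and the EphB receptors, mostly Ephb4, at 39.3 ± 1.63 and 35.8 ± 1.46. The lower sums of the ephrin-A and EphB classes are those that hold Efna1 on the one hand and Ephb3 and Ephb4 on the other. The level of Efnb2 relative to its receptor Ephb4 was 0.319 ± 0.0156 in WT and 0.326 ± 0.0111 in labelled-mutant libraries, a difference smaller than the SD of either group. These sums and ratios are descriptions and were not tested.

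Several of these genes are transcribed in endothelial cells, and the summed level of markers of those cells was lower in every labelled-mutant library than in any WT library. The sum of 12 endothelial markers was 1436 to 1478 CPM in WT (mean 1455 ± 17.1) and 1333 to 1433 CPM in labelled-mutant libraries (mean 1382 ± 42.0), a log2 difference of -0.08. As the markers were chosen with earlier results of these data known, the sum is a description. Of the 12 markers, 11 had a log2 fold change below 0, against 50.6% of all tested genes, and 7 an unadjusted p below 0.05, against 10.5%. At an FDR of 0.05, 0 of the 12 markers passed in edgeR's quasi-likelihood test, against 0.526% of all tested genes. Esam, an endothelial adhesion molecule, was the nearest of these markers (log2 fold change -0.15, FDR 0.0584). The likelihood ratio test called 3 of them (Kdr, Esam and Erg), the fit with no filter 3 (Kdr, Tie1 and Esam), DESeq2 2 (Kdr and Tie1) and limma voom 0. Cdh5, whose promoter drives the Cre, was at 285 ± 4.39 and 287 ± 8.51 CPM. Fewer endothelial cells and less of these RNAs per cell cannot be told apart in whole ventricles.

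Set against this marker sum, Efna1 was at 1.76% ± 0.0861 of it in WT and 1.55% ± 0.0470 in labelled-mutant libraries (SD, n = 4 each), and the groups still did not overlap (log2 difference -0.19, against -0.26 before). Ephb3 was at 3.41% ± 0.205 and 2.96% ± 0.219, with overlapping groups (log2 difference -0.20). Ephb4 was at 9.90% ± 0.342 and 9.71% ± 0.328, and Efnb2 at 4.66% ± 0.107 and 4.68% ± 0.173, so that both were nearly level with the marker sum. Epha2, at 1.03% ± 0.0489 and 1.19% ± 0.0380, and Efnb1, at 3.004% ± 0.105 and 3.33% ± 0.152, were higher in every labelled-mutant library. In all, 3 of the 10 genes did not overlap between the groups on this scale, 2 higher and 1 lower. For all tested genes the share was 11.9%, both directions counted. As CPM the groups of Epha2 and Efnb1 overlapped, and the marker sum they are divided by was lower in every labelled-mutant library. The ratio makes no allowance for the share of each gene's RNA that comes from other cells.

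**Figure D4:**
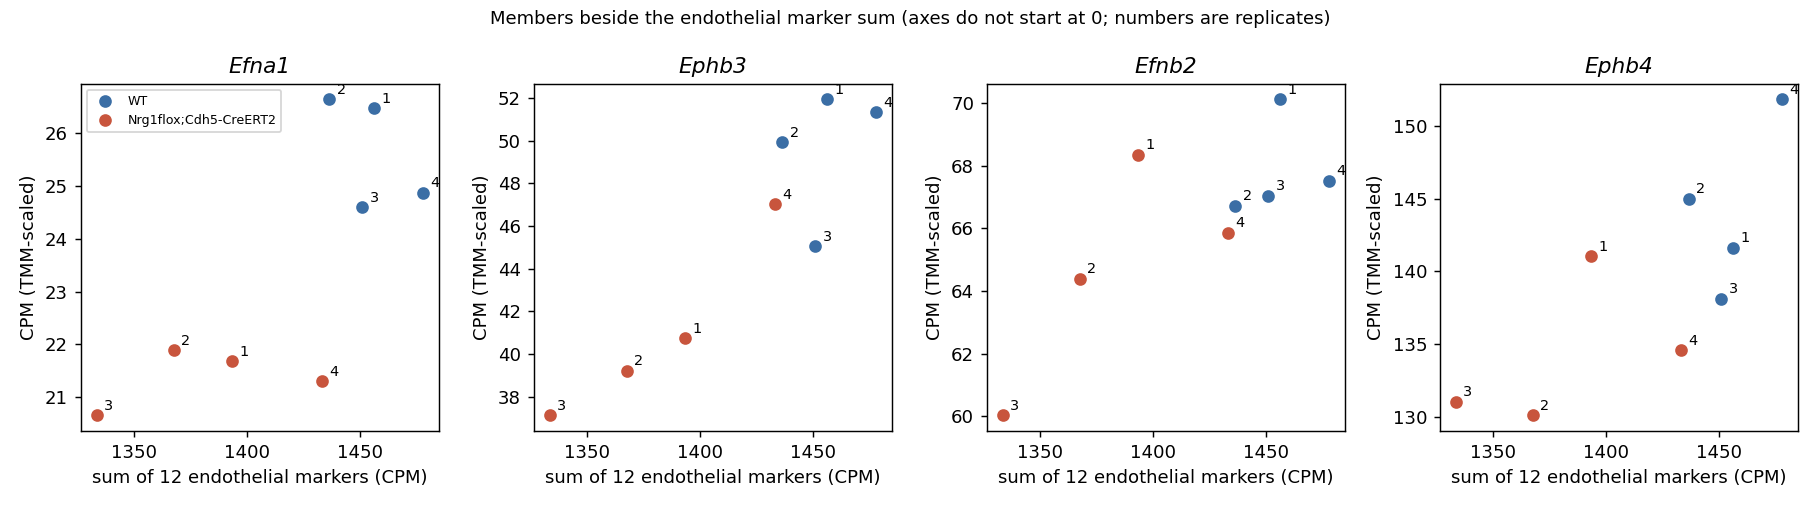
Level of Efna1, Ephb3, Efnb2 and Ephb4 in CPM (vertical axes) against the sum of 12 endothelial markers in CPM (horizontal axes), with a point per library numbered by replicate and axes that do not start at 0. The WT libraries (blue) lie at 1436 to 1478 CPM of the marker sum and the labelled-mutant libraries (red) at 1333 to 1433 CPM, and the labelled-mutant libraries lie at 20.7 to 21.9 CPM of Efna1 over that whole range.

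Other genes of the vessel types that Efnb2 and Ephb4 mark were read from the same fit. Of 12 arterial genes other than Efnb2, 9 had a log2 fold change below 0 (median -0.10), against 50.6% of all tested genes. An unadjusted p below 0.05 was found for 6 of the 12, against 10.5% of all tested genes, and 5 of these were lower in the labelled-mutant libraries. Against 0.526% of all tested genes, 1 of the 12 passed the test, Cxcr4, the receptor of the chemokine CXCL12. It was at 12.02 ± 0.596 CPM in WT against 9.25 ± 0.494 CPM in labelled-mutant libraries (log2 fold change -0.38, SE 0.0741, FDR 0.0454). Without any 1 of WT 1 to 4 or labelled-mutant 1 to 3 its FDR was 0.0914 to 0.132, and it was 0.0767 with the replicate block. The likelihood ratio test called 3 of the arterial genes (Dll4, Cxcr4 and Jag1), DESeq2 2 (Dll4 and Cxcr4), the fit with no filter 5 and limma voom 0. Of 8 venous or lymphatic genes other than Ephb4, 6 were below 0 (median -0.12) and 1 passed, Aplnr, the apelin receptor, at 53.2 ± 3.08 and 42.9 ± 1.25 CPM (log2 fold change -0.31, SE 0.0441, FDR 0.0118; 0.0534 without labelled-mutant 3). An unadjusted p below 0.05 was found for 4 of these 8 genes, 3 of them lower in the labelled-mutant libraries, against 10.5% of all tested genes. Efnb2 and Ephb4, with -0.07 and -0.10, lay near the medians of these lists and did not pass.

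Markers of the other cell types of the ventricle had 0 genes at an FDR below 0.05 in the quasi-likelihood test. Some were called by other fits: the cardiomyocyte gene Myh6 by DESeq2 (FDR 0.0131) and with no filter (0.00292), and the fibroblast gene Postn by the same fits (0.048 and 0.0144). Of the mural genes, the likelihood ratio test called Kcnj8 (0.0309), DESeq2 Acta2 and the fit with no filter Rgs5. The other lists of this paragraph had 0 calls in those fits, and limma voom called 0 genes of any of them. The median log2 fold change was -0.03 over 6 endocardial genes (Nfatc1 had the smallest p, FDR 0.393), -0.01 over 12 cardiomyocyte genes (Myh6, FDR 0.134) and -0.06 over 8 fibroblast genes (Postn, FDR 0.225). It was -0.13 over 8 mural genes (Kcnj8, FDR 0.0867), 0.03 over 8 macrophage genes (Csf1r, FDR 0.648) and 0.11 over 7 erythroid genes (Hba-a2, FDR 0.88). All 7 epicardial genes were above 0, with a median of 0.12 (Upk3b, FDR 0.197), where 50.6% of all tested genes were below 0. At an unadjusted p below 0.05 there were 1 endocardial, 1 cardiomyocyte, 1 fibroblast, 4 mural, 0 macrophage, 0 erythroid, 1 neural and 2 epicardial genes. The share over all tested genes was 10.5%. Of 8 neural and Schwann cell genes, 3 passed the filter, with a median of -0.07 (Stmn2, FDR 0.431), and their summed level was 6.37 to 7.65 CPM over all libraries. Cardiomyocyte markers summed to 50557 to 56679 CPM over all libraries, so that heart muscle RNA was abundant in each. The summed level was 515 to 576 CPM in WT against 515 to 569 CPM in labelled-mutant libraries for endocardial markers, 5499 to 6492 against 5306 to 6425 CPM for fibroblast markers and 109 to 154 against 118 to 174 CPM for macrophage markers. It was 1727 to 1843 against 1805 to 1905 CPM for mural markers, of which Acta2 made up 74.8%. Acta2 (smooth muscle actin) was at 1308 ± 46.8 and 1423 ± 55.4 CPM (log2 fold change 0.12, FDR 0.184), while the 7 others had log2 fold changes below 0 and summed to 445 to 502 against 426 to 456 CPM. Of the 4 mural genes at an unadjusted p below 0.05, 3 were lower in the labelled-mutant libraries. It was 168 to 182 against 178 to 202 CPM for epicardial markers and 4268 to 9378 against 5848 to 9975 CPM for erythroid markers. None of the markers was at 0 in every library. The part of these cell types in the values of the ephrin and Eph genes was not tested.

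The partners of the receptors and ligands were read from the same fit. Eph receptors signal forward through exchange factors, adaptors and kinases that act on the actin cytoskeleton. Of 27 such genes 26 passed the filter, and 0 passed at an FDR of 0.05 in edgeR's quasi-likelihood test. An unadjusted p below 0.05 was found for 2, against 10.5% of all tested genes. The 26 genes had 13 on either side of 0 and a median of 0.00. Arhgef15 (ephexin-5, a RhoA exchange factor of endothelium and neurons) had the smallest p, at 32.3, 33.0, 32.9 and 33.2 CPM in WT 1 to 4 and 29.3, 30.4, 26.9 and 28.4 CPM in labelled-mutant 1 to 4. Its groups did not overlap (log2 fold change -0.19, SE 0.0447, FDR 0.0869). It passed with the likelihood ratio test (FDR 0.0257) and with no filter (0.0433), and DESeq2 and limma voom called 0 of the 26 genes. Of 9 partners of the ephrin-B tail, 0 passed and 1, the adaptor Nck2, had an unadjusted p below 0.05 (log2 fold change -0.09, FDR 0.451), with a median of -0.03. Of 5 proteases that cut ephrins or Eph receptors, 0 passed and 1, the membrane protease Mmp14, had an unadjusted p below 0.05 (log2 fold change -0.13, FDR 0.364), with a median of -0.07. The likelihood ratio test, the fit with no filter, DESeq2 and limma voom called 0 genes of these 2 lists as well.

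The genes whose pattern over the 8 libraries was most like that of Efnb2 and Ephb4 were found by the root mean square difference of log2 CPM, each gene centred on its own mean. For Efnb2 these were Tbc1d9b (0.0235), Tmod3, a cap of actin filaments (0.0266), and Atp8b2, a lipid flippase (0.0272), where the median over all tested genes was 0.112. For Ephb4 they were Necap1, a protein of clathrin coats (0.0211), Alkbh3, a DNA repair enzyme (0.0227), and Rnf144a, a ubiquitin ligase (0.0250), with a median of 0.117. The measure favours genes of high counts and small spread, and the 8 libraries share the 2 groups.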

How the data were processed

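PolyA RNA of 8 ventricle samples was made into directional libraries and sequenced as single reads, per the labels. The authors deposited RSEM 1.3.1 expected counts per Ensembl gene on GRCm38 (tools and build from the submitters' processing notes, which also name cutadapt), and estimated counts divide a read that matches several genes among them, so 18.1% of the values were not whole. Whether counting used strand is not given in the sources used here. Counts were rounded, filtered with filterByExpr by group (15388 of 53465 genes), TMM-scaled and compared with edgeR 4.0.16 (glmQLFit, glmQLFTest, FDR 0.05, group as the only term) in R 4.3.3. GENCODE M21 matched 53360 identifiers. RefSeq promoters matched all 10 genes. No 2 libraries were copies (chi-square per degree of freedom at least 3.01 over 28 pairs). Scripts were tested on simulated counts.

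The genes and gene lists were chosen with earlier results of these data known. The genes named were the 10, the other family genes past the filter, the 3 most like Efnb2 and Ephb4, and of each list those at an FDR below 0.05 or else that with the smallest p, besides Cdh5, Nrg1, Xist and Y-linked genes. Cdh5, Acta2 and the list genes called only by an alternative were named after their values were seen. Same-numbered libraries were compared by the correlation of their deviations from the group means. Alternatives were other scalings (RLE, total, upper quartile), other filters (none, or 4 libraries at a CPM of 1 or more), other tests (DESeq2 1.42.0, limma 3.58.1 voom, edgeR's likelihood ratio test), other FDR thresholds, leaving out each library, a replicate block, the Y-linked level as a covariate, a GC and length correction (lowess span 0.3) and the longest transcript's length. Figures used matplotlib 3.10.9 in Python 3.11.15.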

Additional observations from a re-analysis of the deposited data

Results flagged for a closer look

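Among the 36 groups of 4 libraries examined (18 family genes in each group), 2 held a library that stood apart from the other three by Dixon's criterion, where chance gives about 1.8. Both were of Ephb1, whose level is low. In WT, library 1 was at 4.81 CPM and the others at 5.08 to 5.13 CPM. In the labelled-mutant group, library 3 was at 2.89 CPM and the others at 4.25 to 4.49 CPM. None of the 10 genes described had such a library.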

How the results depend on the processing

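Efna1 was the only one of the 10 genes called under total, RLE or upper quartile scaling, limma voom, the CPM filter and the GC and length correction, and its log2 fold change kept its sign in all 19 other fits (-0.30 to -0.24). Called genes numbered 2 of the 10 (Efna1 and Ephb3) with no filter, the likelihood ratio test and DESeq2, 2 at FDR 0.1, and 0 with the Y-linked covariate or at FDR 0.01. Over all genes the count of 81 became 338 with no filter, 242 with the likelihood ratio test, 195 with DESeq2, 16 with the Y-linked covariate, 3 at FDR 0.01 and 190 at FDR 0.1. Leaving out each library in turn gave 11 (without labelled-mutant 3) to 142 (without labelled-mutant 4) over all genes, 0 to 2 of the 10 genes called and 1 to 3 of the 10 without overlap. The cause of these shifts was not tested.

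With the replicate number as a block, 2 of the 10 genes were called (Efna1 and Ephb3, FDR 0.0488 and 0.0313). Same-numbered libraries correlated at 0.0998, 0.0474, 0.0447 and 0.121 in their deviations from the group means, against -0.0877 to 0.0195 for other pairs, so not every pair passed 0.1 and the numbers were taken as names. Every library correlated best with its own number, which is a hint from the data, not the design.

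Over the 18 family genes and the 19 other fits, 13 log2 fold changes had the reverse sign, each of a gene that did not pass. With the Y-linked covariate the log2 fold changes were -0.0202 (Efna5), 0.116 (Ephb2), -0.000296 (Efnb3), -0.0337 (Epha3) and -0.0189 (Epha5). With 1 library omitted, the values were -0.00245 to 0.0480 for Efna5, -0.0193 to 0.0645 for Epha7, -0.0567 to 0.0863 for Epha3, -0.179 to 0.0148 for Efna4 and -0.126 to 0.0736 for Epha1. They were -0.0512 to 0.351 for Hba-a2 and -0.00896 to 0.0237 for Cdh5. Cxcr4 did not pass with total scaling, limma voom, the Y-linked covariate or the GC and length correction (FDR 0.0502 to 0.261), nor Aplnr with the covariate (0.0822). Among the other lists, the calls that other filters and tests added are given beside each list, except for Y-linked genes. All 4 of those (Kdm5d, Eif2s3y, Uty and Ddx3y) were called with no filter and with the replicate block. In the main fit 0 of the 4 passed, with log2 fold changes of -0.85 to -0.63. Omitting labelled-mutant 4 added Ddx3y, Kdr and Tie1, and omitting labelled-mutant 1 added Dll4. An FDR of 0.1 added Dll4, Kdr, Esam, Erg, Kcnj8 and Arhgef15. Depth limits Epha5 most, with at most 20.9 expected counts in a library.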
